A study of Homo sapiens with 12 samples.

Results

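HT1080, an established human fibrosarcoma cell line, was given 20 Gy of radiation together with interferon gamma (IFNγ) at 10 ng/ml, and its RNA was compared with that of cells given IFNγ alone. The comparison rests on 6 of the 12 libraries of the study: 3 of the combination and 3 of IFNγ, all harvested at 24 h. The other 6 libraries, 3 untreated and 3 from cells that received 20 Gy without the cytokine, give the same radiation effect in its absence and are used here to set the 2 effects side by side and to share in the estimate of spread between libraries. All 4 groups are the same line at the same range of passages, so a single tumour line was studied, without the lymphocytes, vessels or stroma of a tumour. The labels do not give the order of cytokine and radiation. Nothing in the labels ties the 3 libraries of a group to different cultures. The p-values therefore cover the variation among libraries alone, and that variation may be purely technical.

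Ionising radiation breaks both strands of DNA, and in cells with working p53 the breaks stabilise that transcription factor, which then raises inhibitors of the cell cycle, repair enzymes, death receptors and its own antagonist MDM2. Genes for DNA replication are driven by E2F factors and fall when cells stop entering S phase. IFNγ acts through JAK kinases and STAT factors on genes of antigen presentation, and in tumour cells it is also known to lower the cystine importer SLC7A11, which feeds glutathione synthesis and protects against ferroptosis, an iron-dependent death by lipid peroxidation. Radiation is known to act on the same importer.

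The deposited table gave read counts for 19293 gene entries, of which 12160 had enough reads to be tested. Library totals lay between 10254314 and 11010656 counts in the 6 libraries compared, with a median of 320 counts for a tested gene, and the biological coefficient of variation over all groups was 2.71%. Levels below are in CPM, read counts scaled to a fixed library size after adjustment by trimmed means. Of 10 mesenchymal markers of the line 9 were tested, with 4 called higher (44.4%) and 1 lower (11.1%). Among all tested genes these shares were 30.3% and 30.4%. The lower one was vimentin (VIM), at a mean of 5489.5 CPM under IFNγ and 4507 CPM under the combination, while fibronectin (FN1) had means of 1176 and 1978 CPM. Some other mesenchymal markers were low, such as COL1A1 at 2.65 and 5.57 CPM, and THY1, a fibroblast marker, was at or near 0 in both groups. Epithelial markers were mixed. The keratins KRT8 and KRT18 were expressed, at 342 and 180.4 CPM under IFNγ and 403 and 173 CPM under the combination, and of the 3 epithelial markers tested KRT8 and CLDN4 were called higher. The epithelial marker EPCAM and PTPRC, the leukocyte marker CD45, were at or near 0, with means of 0.066 and 0.166 CPM under IFNγ and of 0.0327 and 0.437 CPM under the combination. Of 12 immune cell markers 2 had enough reads to be tested, CD68 and CSF1R, and both were called higher. Summed levels of that list lay between 141 and 142 CPM under IFNγ and between 191 and 203 CPM under the combination. The 3 epithelial and 2 immune markers tested are too few to set against the shares of all tested genes. The part of other cell types in the results was not tested. The 8 mitochondrially encoded transcripts in the table took 3.36% to 3.59% of counts under IFNγ and 4.25% to 4.34% under the combination.

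Adding 20 Gy to IFNγ changed most of the expressed genes, the larger number of them by small amounts. By edgeR's quasi-likelihood test at a Benjamini-Hochberg adjusted p under 0.05, 7380 of 12160 genes differed between the combination and IFNγ alone, which is 60.7% of those tested. The called genes were split evenly, with 3685 higher (30.3%) and 3695 lower (30.4%) under the combination. The counts in each group of genes are to be read against these shares. Gene lists and their members were chosen with earlier results of these data known, so such counts describe the members and are not a test. Changes of at least 2-fold were fewer and mostly upward, with 589 genes higher (4.84%) and 143 lower (1.18%). Across all tested genes the median log2 fold change was 0.00054 and the median of its absolute value was 0.248. The even split and the median near 0 follow in part from the scaling by trimmed means, which centres changes near 0. With scaling by library totals 4059 genes were called higher and 3275 lower, with a median of 0.0364, so the shares used as background also depend on the scaling.

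**Figure D1:**
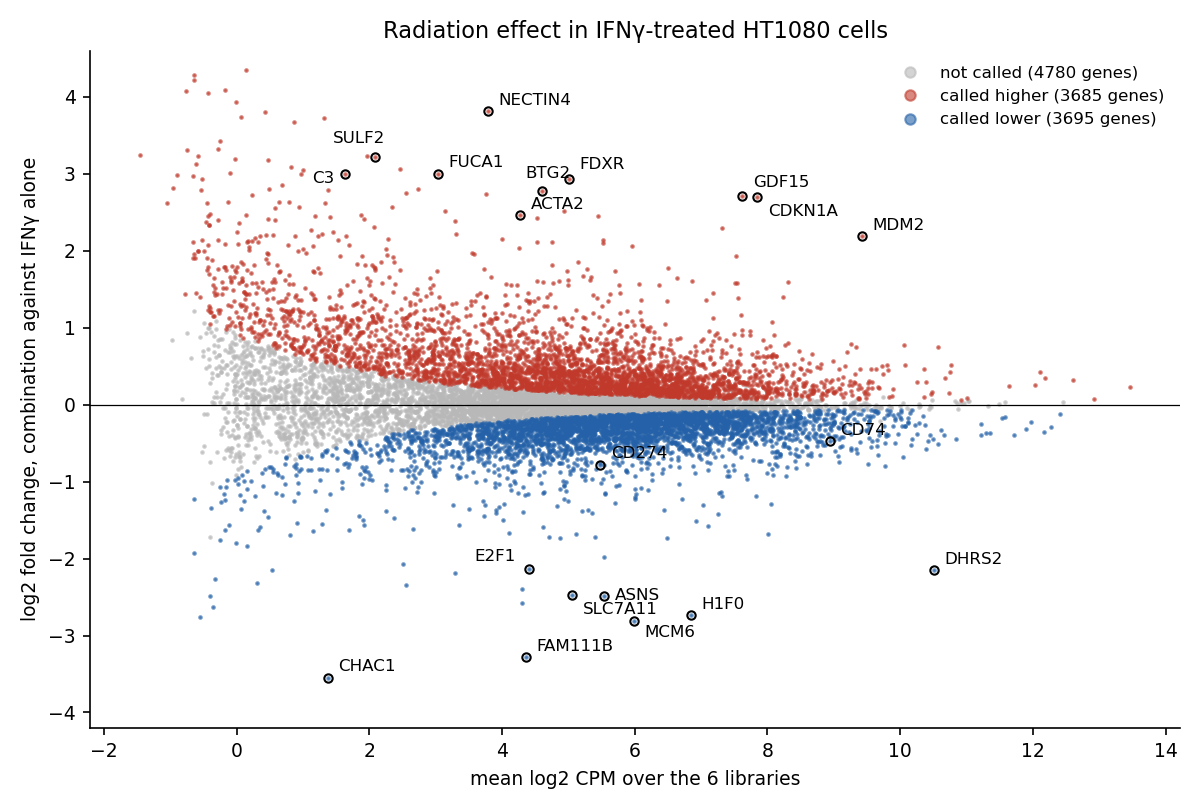
Log2 fold change of the combination against IFNγ alone (y axis) against the mean log2 CPM over the 6 libraries (x axis), 1 point per tested gene, with called genes in red (3685 higher) or blue (3695 lower) and uncalled genes in grey. The named genes reach from CHAC1 at -3.55 and FAM111B at -3.28 to NECTIN4 at 3.81, and the spread of uncalled genes widens toward low levels.

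Among well-expressed genes that rose, NECTIN4, a cell adhesion molecule of the nectin family, changed the most. Its 3 IFNγ libraries held 3.86, 3.55 and 3.31 CPM and its 3 combination libraries 49.4, 49 and 52.4 CPM, a log2 fold change of 3.81 ± 0.137 (SE). SULF2, which trims sulfate groups from heparan sulfate outside the cell, rose by 3.22 on the log2 scale, and FAM212B, listed among p53 targets, by 3.07. FUCA1, a lysosomal fucosidase, rose from 2.83 ± 0.821 to 22.7 ± 0.9 CPM (SD, n = 3 each), and FDXR, the mitochondrial ferredoxin reductase, by 2.93 on the log2 scale. CSMD3, a large membrane protein, rose by 2.81, BTG2, a brake on proliferation, by 2.78, and CEACAM1, an adhesion and immune inhibitory receptor, by 2.75. SUGCT, a mitochondrial coenzyme A transferase, rose by 2.73, and SHC4, a signalling adaptor, by 2.56. In each of these genes every combination library lay above every IFNγ library, which the rule for naming the largest changes required.

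The genes that fell the most included genes of DNA replication, chromatin and amino acid supply. FAM111B, a protease linked to DNA replication, stood at 63, 62.6 and 64.1 CPM in the IFNγ libraries and at 5.88, 6.8 and 6.8 CPM in the combination libraries, a log2 fold change of -3.28 ± 0.108. H1F0, the linker histone H1.0, went from 296 ± 12.2 CPM (SD, n = 3) to 44.4 ± 1.87 CPM (SD, n = 3). WDR76, a WD-repeat protein, changed by -2.58 on the log2 scale, CCDC144NL by -2.40, and ESM1, a secreted proteoglycan also called endocan, by -1.97. DHRS2, a short-chain dehydrogenase and one of the most abundant genes to fall, had 3152, 3080.1 and 2954 CPM under IFNγ and 681, 681 and 704 CPM under the combination. No library of either group crossed into the other group's range for these genes, again a condition of the naming rule and not a separate result.

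The p53 targets rose together in the presence of IFNγ. Over 4 lists of known targets with 55 members, 48 of the 53 tested were called higher and none lower, beside 30.3% higher and 30.4% lower among all tested genes, and 30 of the 48 rose at least 2-fold. The median member changed by 1.21 on the log2 scale, and the summed level of the members went from between 3630 and 3710 CPM in the IFNγ libraries to between 8688 and 8856 CPM in the combination libraries.

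All 13 tested genes of p53 feedback and damage signalling were called higher, with a median log2 fold change of 1.44. MDM2, the ubiquitin ligase that degrades p53, held 315, 325 and 328 CPM under IFNγ and 1457, 1448 and 1502 CPM under the combination, a log2 fold change of 2.19 ± 0.032 (edgeR, Benjamini-Hochberg adjusted p = 1.8e-48). Its lowest combination library was far above its highest IFNγ library. TP53INP1, which promotes p53-dependent arrest and death, rose by 2.45 ± 0.0798, and SESN1, a stress-induced inhibitor of mTORC1 signalling, by 1.66 ± 0.0695. ATF3, a stress-induced transcription factor, rose by 1.27 ± 0.0926, and SESN2 by 0.43 ± 0.0653.

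Of the 20 targets that act in arrest and metabolism, 18 were called higher and none lower, with a median of 1.23. CDKN1A encodes p21, the inhibitor of cyclin-dependent kinases that holds cells in G1, and its libraries read 86.7, 92.3 and 92 CPM under IFNγ and 578, 594 and 592 CPM under the combination. The difference was 2.70 ± 0.0395 on the log2 scale (edgeR, Benjamini-Hochberg adjusted p = 2.6e-51). GDF15, a secreted cytokine of the TGF-beta family raised by many stresses, went from 76.8 ± 3.11 to 505 ± 25.9 CPM (SD, n = 3 each). The low-level ABCA12, a lipid transporter, had 8 counts summed over the IFNγ libraries and 120 over the combination libraries, so its log2 fold change of 3.81 ± 0.52 is less sure than the others.

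Repair targets of p53 were called higher in 7 of 8 cases. DDB2 and XPC, which recognise damaged bases for nucleotide excision repair, rose by 1.77 ± 0.0491 and 1.55 ± 0.0503. RRM2B, the p53-dependent subunit of ribonucleotide reductase, rose by 1.36 ± 0.0435, and POLH, a polymerase that copies past damage, by 1.21 ± 0.0557. TRIAP1, an inhibitor of apoptosis, rose by 0.87 ± 0.0658, PCNA, the sliding clamp of replication and repair, by 0.81 ± 0.0324, and REV3L, a translesion polymerase, by 0.52 ± 0.051. POLK, a further translesion polymerase, had 36.8, 31.2 and 44.4 CPM under IFNγ and 36.3, 36.6 and 40.9 CPM under the combination, overlapping groups. Among the 12 death targets, 10 were called higher. TP53I3, an oxidoreductase, rose by 1.81 ± 0.0766, BBC3, the killer protein PUMA, by 1.56 ± 0.0981, the death receptor FAS by 1.43 ± 0.0659 and the pore former BAX by 0.60 ± 0.047.

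A stretch that matches the p53 response element (a pair of p53 decamers with up to 13 bases between them, both strands) lay in the RefSeq promoter window, from 250 bases before to 50 after the start, of 2 of 9598 tested genes with a window (0.0208%). The share over all 35116 windows of that length was 0.0285%. DDB2 was one of the 2 genes, and its match is shown because the gene is among the repair targets that rose. The 30 bases lie at chr11:47214974-47215003 on the plus strand of GRCh38.p14, with the element, at positions 6 to 26 counted from the start as 1, in capitals.
DDB2: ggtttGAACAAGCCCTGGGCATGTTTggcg

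Most listed genes of DNA replication fell together. Of 54 tested genes for origin licensing, the helicase and DNA synthesis, 48 were called lower and none higher, beside 30.4% lower among all tested genes, and 15 fell at least 2-fold. The median log2 fold change was -0.57, and the members' summed level went from between 5903 and 6120 CPM under IFNγ to between 3723 and 3765 CPM under the combination. In bulk RNA, fewer cells in S phase and less RNA of these genes per cell cannot be told apart. The replication clamp PCNA and the ribonucleotide reductase subunit RRM2B are not in these lists. They were counted above among the p53 repair targets, and both rose.

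Origin licensing and the helicase gave 22 of 24 members lower. MCM6, a subunit of the hexameric helicase that unwinds DNA at the fork, had 168, 165 and 167 CPM in the IFNγ libraries and 23.8, 24.6 and 23 CPM in the combination libraries. Its log2 fold change was -2.81 ± 0.0575 (edgeR, Benjamini-Hochberg adjusted p = 6.9e-46). MCM5, another subunit of the ring, fell from 163 ± 9.17 to 49 ± 4.44 CPM (SD, n = 3 each), and GINS2, of the complex that activates the helicase, from 47.1 ± 1.02 to 14.3 ± 1.21 CPM. For DNA synthesis and nucleotide supply, 26 of 30 members were lower, among them POLA1, the catalytic subunit of the priming polymerase (-1.28 ± 0.0579), POLE2, of the leading-strand polymerase (-1.25 ± 0.109), and UHRF1, which carries DNA methylation through replication (-1.23 ± 0.0481).

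Among 24 genes of the E2F family, pocket proteins and G1 cyclins, 14 were lower (58.3%) and 5 higher (20.8%). Among all tested genes these shares were 30.4% and 30.3%. E2F1, an activator of S-phase genes that is itself under E2F control, held 42.7, 45.8 and 43.9 CPM under IFNγ and 8.34, 11.1 and 10.6 CPM under the combination, a log2 fold change of -2.14 ± 0.0953. E2F2 changed by -2.08 ± 0.185 on the log2 scale, and CCNE2, a cyclin that starts S phase, went from 20.4 ± 1.08 to 4.45 ± 0.278 CPM (SD, n = 3 each). RB1, the retinoblastoma protein that holds E2F in check, rose by 0.18 ± 0.0374, and CCND1, the growth-factor-dependent cyclin D1, by 0.20 ± 0.0281.

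The promoter windows of the genes that fell carried E2F-type motifs more often than those of other tested genes. The motif searched was TTTNGCGC or TTTCCCGC on either strand, and 511 of 9598 tested genes with a window held it (5.32%; 3.37% of all 35116 windows). It was present in 13 of 21 licensing and helicase genes with a window (61.9%), in 12 of 26 DNA synthesis genes (46.2%), in 21 of 104 genes that fell at least 2-fold (20.2%) and in 8 of 448 that rose at least 2-fold (1.79%). Of the 511 genes with the motif, 45.2% were called lower and 15.7% higher, against 30% and 31.0% of the 9087 without it. A match is a string of letters and not a measured binding site. MCM6 and GINS2 are printed because each is among the members with the largest fall and holds the motif. Both windows lie on the minus strand of GRCh38.p14, MCM6 at chr2:135876444-135876693 and GINS2 at chr16:85688955-85689204, and each is the 250 bases before the start, read 5′ to 3′, with matches in capitals. In MCM6 the 4 matches overlap in pairs, at -152 to -145 and -148 to -141, and at -90 to -83 and -86 to -79, where -1 is the base before the start. GINS2 has 1 match, at -31 to -24.
MCM6: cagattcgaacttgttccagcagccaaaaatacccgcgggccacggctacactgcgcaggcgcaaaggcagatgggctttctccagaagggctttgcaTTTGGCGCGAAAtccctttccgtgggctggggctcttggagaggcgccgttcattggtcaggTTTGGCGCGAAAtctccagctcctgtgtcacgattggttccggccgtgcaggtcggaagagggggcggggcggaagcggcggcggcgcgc
GINS2: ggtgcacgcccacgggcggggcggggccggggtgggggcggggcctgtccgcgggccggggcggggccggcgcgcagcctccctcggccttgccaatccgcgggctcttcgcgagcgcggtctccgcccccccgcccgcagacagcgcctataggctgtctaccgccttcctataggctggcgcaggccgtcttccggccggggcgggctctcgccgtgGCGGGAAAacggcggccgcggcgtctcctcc

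Genes of mitosis and the G2 phase did not move as a block: 15 of 41 were called higher (36.6%), 12 lower (29.3%) and 14 neither, with a median of -0.01. Both shares were near the 30.3% and 30.4% of all tested genes. HMMR, a spindle-associated hyaluronan receptor, had 144, 143 and 140.4 CPM under IFNγ and 224, 215 and 198 CPM under the combination, and TOP2A, the topoisomerase that untangles sister chromatids, rose by 0.51 ± 0.0279. AURKA, a spindle kinase, rose by 0.45 ± 0.0398, CDK1, the kinase that starts mitosis, by 0.39 ± 0.0405, and its cyclin CCNB1 by 0.15 ± 0.0332. In the other direction, MYBL2, a transcription factor made at the G1 to S boundary, fell from 96.8 ± 4.68 to 42.1 ± 1.57 CPM (SD, n = 3 each). CDC25A, a phosphatase that frees S-phase kinases, changed by -0.79 ± 0.0641, WEE1, which restrains CDK1, by -0.55 ± 0.0612, and MKI67, the Ki-67 proliferation antigen, by -0.53 ± 0.0284. The sign of the list's median of -0.01 turned positive when libraries were scaled by their totals.

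The motif known as the cell cycle genes homology region, searched as TTTGAA on either strand, lay in the windows of 23 of 33 mitotic genes (69.7%), beside 10.2% of tested genes with a window, 15.2% of all windows and 4.76% of licensing and helicase genes. Of the 981 tested genes with it, 30.1% were called higher and 31.6% lower, with a median log2 fold change of -0.01. HMMR and TOP2A are shown as the mitotic genes with the largest rise that hold the motif, each as the 250 bases before the start with matches in capitals. HMMR lies on the plus strand at chr5:163460382-163460631 with matches at -28 to -23 and -22 to -17, and TOP2A on the minus strand at chr17:40417897-40418146 with matches at -194 to -189 and -151 to -146 (GRCh38.p14).
HMMR: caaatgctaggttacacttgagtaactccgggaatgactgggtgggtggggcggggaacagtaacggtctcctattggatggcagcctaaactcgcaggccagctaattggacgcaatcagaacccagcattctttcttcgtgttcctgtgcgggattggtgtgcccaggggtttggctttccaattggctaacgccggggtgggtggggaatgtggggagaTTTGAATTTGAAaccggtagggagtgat
TOP2A: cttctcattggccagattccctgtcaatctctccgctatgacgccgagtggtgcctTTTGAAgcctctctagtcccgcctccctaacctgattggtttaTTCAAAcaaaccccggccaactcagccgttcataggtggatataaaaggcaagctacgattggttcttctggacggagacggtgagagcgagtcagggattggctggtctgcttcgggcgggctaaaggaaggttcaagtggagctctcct

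**Figure D2:**
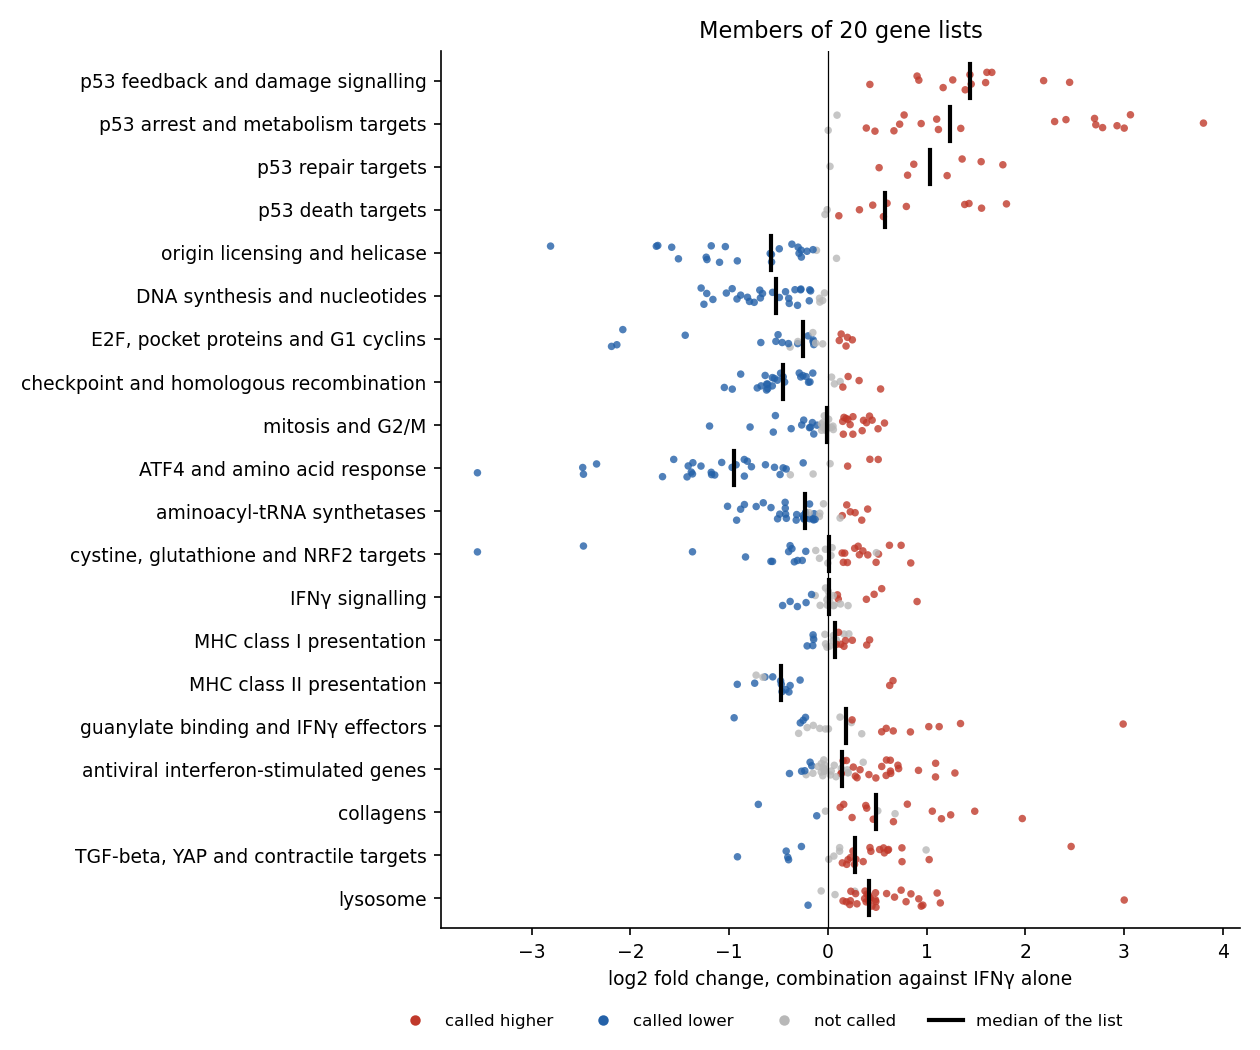
Log2 fold changes of the combination against IFNγ alone for the tested members of 20 gene lists, 1 point per gene and 1 line of points per list, with called genes coloured and a bar at each list's median. The p53 lists sit to the right of 0 with medians from 0.58 to 1.44, the replication and ATF4 lists to the left with medians from -0.53 to -0.95, and most interferon lists straddle 0.

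Repair of double-strand breaks by homologous recombination uses genes made in S phase, and 24 of the 31 checkpoint and recombination genes were called lower, with 4 higher and a median of -0.45. EXO1, a nuclease that resects broken ends, had 66.7, 59.9 and 65 CPM under IFNγ and 34, 31.8 and 32.1 CPM under the combination, a log2 fold change of -0.97 ± 0.0608. Its 2 groups did not overlap. CLSPN, the adaptor that activates the CHK1 kinase, changed by -0.88 ± 0.0476. ATM, the kinase that senses the breaks, rose by 0.32 ± 0.0449, and RAD51B, a recombination mediator, rose by 0.53 ± 0.167. Of 14 end-joining genes 6 were lower (42.9%) and 1 higher (7.14%), beside 30.4% and 30.3% of all tested genes. PARP1, which marks broken DNA with ADP-ribose, fell from 364 ± 11.1 to 233 ± 3.67 CPM (SD, n = 3 each), and the ligase LIG3 and the ligation cofactor NHEJ1 changed by -0.63 ± 0.0701 and -0.52 ± 0.0983, while the polymerase POLL rose by 0.27 ± 0.0852. Of 16 Fanconi anemia genes, which unhook crosslinks, 11 were lower, among them FANCE (-0.60 ± 0.108), the ubiquitin-conjugating UBE2T (-0.56 ± 0.0604) and FANCC (-0.54 ± 0.0929).

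Of 61 replication-dependent histone genes 20 had enough reads to be tested. Of these 8 were higher (40%) and 5 lower (25%), beside 30.3% and 30.4% of all tested genes. HIST2H2BE rose by 1.24 ± 0.138, HIST1H2AG by 1.35 ± 0.211 and HIST1H2BE by 1.25 ± 0.318, all core histones that package DNA. The called members that fell included the H4 genes HIST1H4A, with 35 counts summed over the IFNγ libraries and 5 over the combination libraries, and HIST1H4B, with 44 and 7. The number called lower was 3 when only the 6 libraries were fitted and 9 without a filter on low counts, and the near-identical copies of these genes can share reads. All 61 genes together summed to only 108 to 124 CPM under IFNγ and 123 to 137 CPM under the combination. It is uncertain whether total RNA or only mRNA was sampled. What part of the histone RNA these counts hold is therefore unknown.

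Genes of the ATF4 pathway, which supplies amino acids and answers their shortage, fell as a group. Of 37 members 34 were tested, and 28 were called lower and 3 higher, beside 30.4% and 30.3% of all tested genes, with a median log2 fold change of -0.95 and 16 members down at least 2-fold. ATF4 itself stood at 414, 425 and 399 CPM in the IFNγ libraries and at 169.7, 169 and 169 CPM in the combination libraries, a log2 fold change of -1.28 ± 0.0337 (edgeR, Benjamini-Hochberg adjusted p = 4.2e-38). The summed level of the list went from between 4619 and 4728 CPM to between 2560.0 and 2569 CPM.

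ASNS, which makes asparagine, held 108, 109.7 and 112 CPM under IFNγ and 19.8, 20 and 19 CPM under the combination, a log2 fold change of -2.48 ± 0.0636. SLC1A4, a transporter of neutral amino acids, went from 12.7 ± 0.395 to 2.49 ± 0.303 CPM (SD, n = 3 each). CHAC1, which degrades glutathione and is a sensitive ATF4 target, had the largest fall of the list at -3.55 ± 0.333, from 243 summed counts under IFNγ to 21 under the combination. DDIT3, the stress factor CHOP, changed by -0.82 ± 0.141. The members that rose were STC2, a secreted glycoprotein (0.51 ± 0.0404), SESN2, which p53 also raises, and CEBPB, a partner of ATF4 (0.20 ± 0.0538). The enzymes that charge tRNA with amino acids gave 28 of 39 members lower and 6 higher with a median of -0.23. NARS2 of the mitochondrial set (-1.02 ± 0.1), YARS (-0.92 ± 0.0384) and GARS (-0.88 ± 0.0338) changed the most, while QARS rose by 0.40 ± 0.0385.

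The amino acid response element, searched as TGATGNAA on either strand, was found in the windows of 5 of 29 ATF4 pathway genes (17.2%), beside 1.88% of tested genes with a window and 3.62% of all windows. Of the 180 tested genes with it, 40.0% were called lower and 28.3% higher. CHAC1 and SLC1A4 are printed as the members with the largest fall that hold it, with the match in capitals. CHAC1 is shown as the 250 bases before its start at chr15:40953221-40953470, plus strand, with the match at -209 to -202. SLC1A4 is shown as 30 bases at chr2:64989381-64989410, plus strand, with a match that runs from -7 to 1 across the start (GRCh38.p14).
CHAC1: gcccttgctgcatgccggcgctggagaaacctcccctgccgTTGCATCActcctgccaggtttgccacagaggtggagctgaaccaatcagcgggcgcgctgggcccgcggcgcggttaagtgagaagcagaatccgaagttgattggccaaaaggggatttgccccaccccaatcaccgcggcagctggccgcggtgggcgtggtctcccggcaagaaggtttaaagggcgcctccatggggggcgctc
SLC1A4: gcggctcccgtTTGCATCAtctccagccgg

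SLC7A11, the light chain of the cystine importer system xc-, fell when radiation was added to IFNγ. Its libraries read 96.8, 114 and 114 CPM untreated, 71.4, 82.4 and 81.1 CPM with IFNγ, 31.3, 35.2 and 34.3 CPM with 20 Gy and 12.5, 15.1 and 14.6 CPM with both. The combination libraries were the lowest of all 12, and the ranges of the 4 groups did not overlap. The radiation effect under IFNγ was -2.48 ± 0.0921 on the log2 scale (edgeR, Benjamini-Hochberg adjusted p = 2.3e-25). SLC3A2, the heavy chain that carries the importer to the membrane, changed by -1.37 ± 0.0478, from 139.7 ± 4.66 to 54.1 ± 1.12 CPM (SD, n = 3 each).

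Among the 34 genes for cystine, glutathione and NRF2 targets the calls went both ways, 14 higher (41.2%) and 13 lower (38.2%). Among all tested genes these shares were 30.3% and 30.4%. GPX1, the abundant cytosolic glutathione peroxidase, rose by 0.84 ± 0.0382, and HMOX1, which breaks down heme, by 0.74 ± 0.0979. SQSTM1, the autophagy receptor p62, rose by 0.62 ± 0.036, and GPX4, the peroxidase that guards membranes against ferroptosis, by 0.27 ± 0.0515. The 23 lipid enzymes of ferroptosis had 9 higher and 9 lower (39.1% each). SAT1, a polyamine acetylase under p53, rose from 41.3 ± 1.9 to 83.6 ± 1.86 CPM (SD, n = 3 each), COQ8A, needed for coenzyme Q, by 0.62 ± 0.0769, and the phospholipase PLA2G6 by 0.89 ± 0.201. ACSL4, which loads polyunsaturated fatty acids into lipids that can be peroxidised, changed by -0.28 ± 0.0444, the acyltransferase MBOAT1 by -0.89 ± 0.15, COQ2 of coenzyme Q synthesis by -0.75 ± 0.0744 and DHODH, a mitochondrial ferroptosis suppressor, by -0.62 ± 0.11.

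Of 18 iron genes 8 were higher (44.4%) and 7 lower (38.9%), beside 30.3% and 30.4% of all tested genes. TFRC, the transferrin receptor that brings iron in, fell from 1139, 1175 and 1149 CPM in the IFNγ libraries to 669.7, 676 and 649 CPM in the combination libraries, a log2 fold change of -0.80 ± 0.0278. FTH1, the ferritin heavy chain that stores it, had 103, 106 and 112 CPM and 173, 174 and 178 CPM in the same order, a rise of 0.71 ± 0.0421. The iron chaperones PCBP1 and PCBP2 changed by -0.51 ± 0.0338 and -0.40 ± 0.0292, and SLC40A1, the iron exporter, rose by 1.28 ± 0.434 at a low level of 1.36 CPM. Neither of these 2 lists, iron and ferroptosis lipids, had a median far from 0 (-0.01 and -0.02), and both medians turned positive with scaling by library totals.

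**Figure D3:**
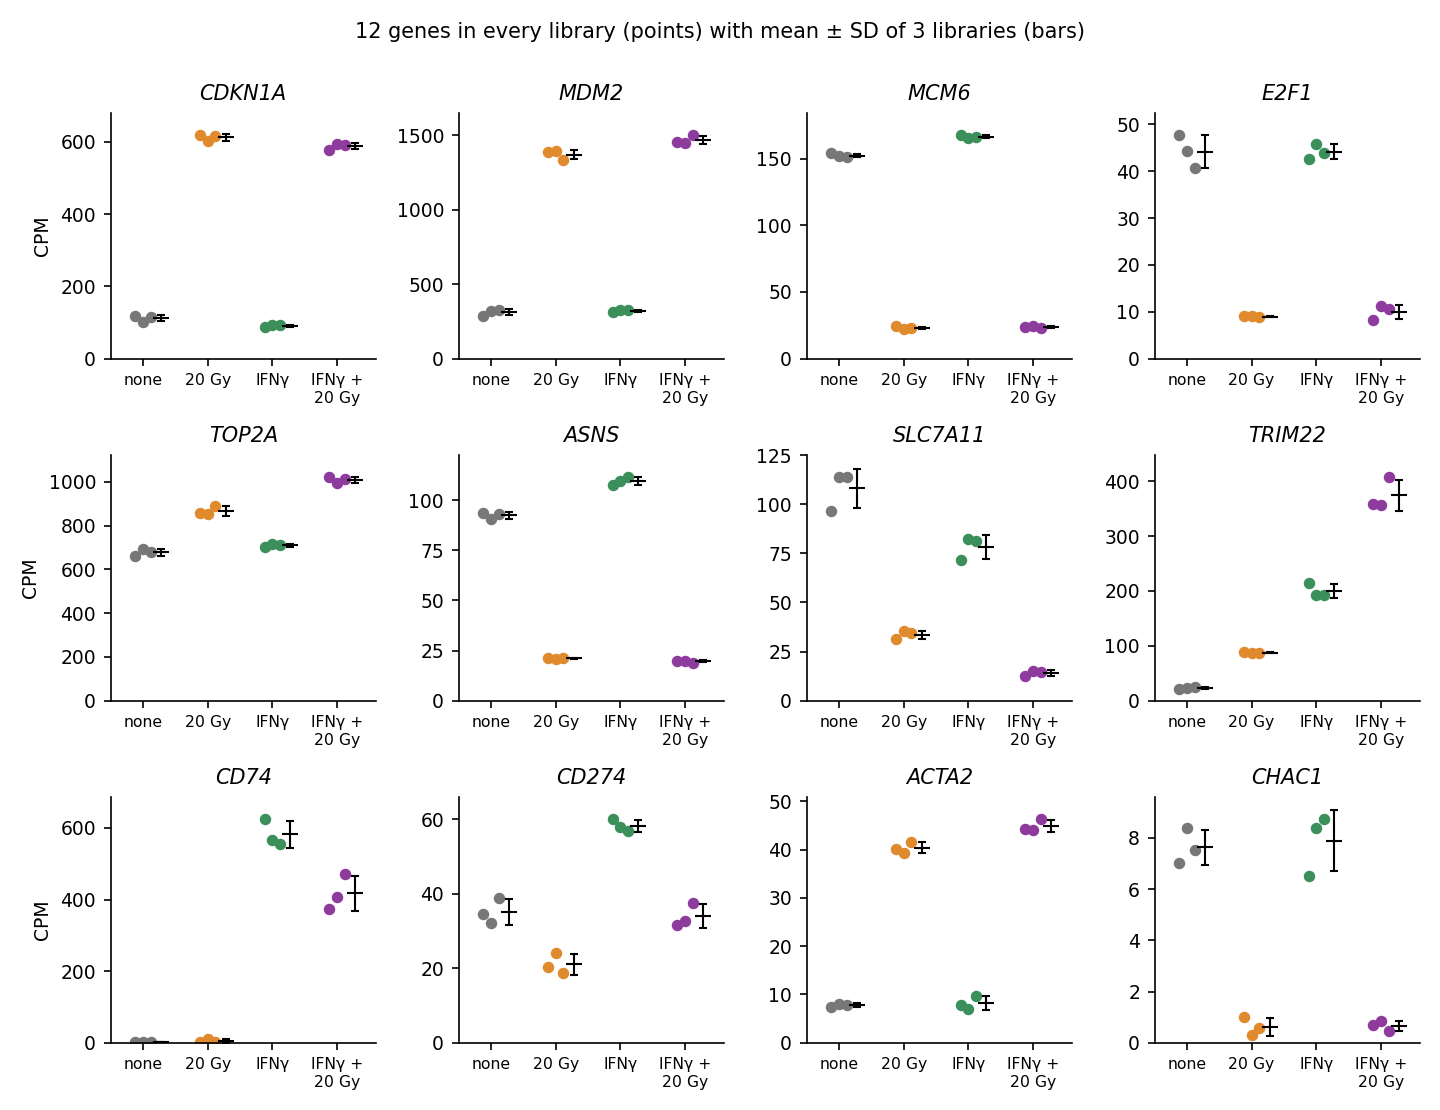
CPM in each of the 12 libraries (points, by group) for 12 genes described in the text, with the mean ± SD of each group of 3 beside them and a separate axis from 0 in each panel. CDKN1A and MDM2 were higher and MCM6, ASNS and SLC7A11 lower in every combination library than in every IFNγ library.

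Interferon genes had a median close to 0 when radiation was added to IFNγ. Over 5 lists (IFNγ signalling, both classes of MHC presentation, guanylate binding proteins and other effectors, antiviral genes), 47 of 129 tested members were called higher and 28 lower, beside 30.3% and 30.4% of all tested genes, with a median log2 fold change of 0.06 and 7 changes of at least 2-fold, all upward. The summed level was between 27951 and 30918 CPM in the IFNγ libraries and between 28109 and 31363 CPM in the combination libraries, so the groups overlapped. Single libraries weighed on several members, as the values of GBP5, IDO1 and IRF1 below show: IFNγ replicate 1 and combination replicate 3 read above the other libraries of their groups. Without combination replicate 3, genes that were otherwise not called became called lower: IRF1 at -0.23, TAP1 at -0.22, ICAM1 at -0.38 and CXCL10 at -1.11.

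In the signalling list, 6 of 24 genes were higher (25%), 5 lower (20.8%) and 13 not called, beside 30.3% and 30.4% of all tested genes. STAT2, a signal transducer of interferon receptors, rose by 0.55 ± 0.0494 and STAT3, an acute-phase and growth factor signal, by 0.47 ± 0.0395. The receptor chain IFNGR1 rose by 0.39 ± 0.0735, while the second chain IFNGR2 and the kinase JAK2 had log2 fold changes of 0.01 ± 0.0631 and 0.02 ± 0.11 and were not called. IRF9, the DNA-binding partner of the STAT proteins, changed by -0.22 ± 0.0568, and PTPN2, a phosphatase that switches off JAK and STAT proteins, changed by -0.46 ± 0.0605. IRF1, an early transcription factor of the response, read 221, 183 and 178 CPM under IFNγ and 167, 165 and 200.1 CPM under the combination, overlapping and not called. The IFNB1 gene for interferon beta had 0 counts in the IFNγ libraries and 1 in the combination libraries, both under the floor of 3 counts. Of 5 tested genes for type I and III interferons and their receptors, the shared receptor chain IL10RB rose by 0.52 ± 0.0693.

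For MHC class I presentation, 8 of 22 genes were higher (36.4%) and 4 lower (18.2%), with a median of 0.07. Among all tested genes these shares were 30.3% and 30.4%. TAPBP, the tapasin that loads peptides, rose by 0.39 ± 0.035, and CALR, the calreticulin chaperone, by 0.42 ± 0.0263. TAP2, a chain of the peptide transporter, changed by -0.21 ± 0.0393, and PSMB9, an immunoproteasome subunit, by -0.15 ± 0.0423. B2M, the light chain of all class I molecules, read 1905, 1843 and 1796 CPM under IFNγ and 1844, 1865 and 1900.4 CPM under the combination, and TAP1 and HLA-B were also not called, at -0.15 ± 0.0777 and 0.16 ± 0.0676. Of 12 alternatives, 3 called TAP1 lower and 5 called HLA-B higher. Only 4 members were higher without IFNγ replicate 3 or without combination replicate 3, and 2 lower without IFNγ replicate 1, and DESeq2 called 5 higher. HLA reads can be shared between near-identical genes.

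MHC class II genes, made here under IFNγ, leaned the other way: 11 of 15 were called lower and 2 higher, with a median of -0.47 and summed levels of 1172 to 1341 CPM under IFNγ and 862 to 1050.2 CPM under the combination. CIITA, their master regulator, had 167, 147 and 146 CPM under IFNγ and 109.9, 112 and 132 CPM under the combination, without overlap, a log2 fold change of -0.38 ± 0.0564. The invariant chain CD74 read 624, 565 and 556 CPM and 374, 407 and 472 CPM in that order (-0.48 ± 0.138), HLA-DRA changed by -0.74 ± 0.108 and HLA-DPB1 by -0.64 ± 0.0966. The members that rose were CTSS, the protease that trims the invariant chain (0.66 ± 0.104), and the thiol reductase IFI30 (0.63 ± 0.138). DESeq2 called 7 members lower, and the calls of CD74 and HLA-DRA were lost there. The call of CD74 was also lost without IFNγ replicate 1, combination replicate 1 or combination replicate 2.

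Among 22 guanylate binding proteins and other IFNγ effectors, 9 were higher (40.9%) and 4 lower (18.2%), beside 30.3% and 30.4% of all tested genes. The complement genes led the rise. C3, the central component, went from 1.38, 0.467 and 1.3 CPM in the IFNγ libraries to 6.38, 7.75 and 10.8 CPM in the combination libraries, a log2 fold change of 2.99 ± 0.426. C1R and C1S, the proteases of the first component, rose by 1.13 ± 0.0514 and 0.84 ± 0.0444. APOL6 of the apolipoprotein L family changed by -0.25 ± 0.0711. GBP5 read 1079.8, 825 and 809 CPM under IFNγ and 673, 726 and 947 CPM under the combination, with overlap, and IDO1, which degrades tryptophan, 239.8, 154 and 150.4 and 120.4, 125 and 196 CPM, also with overlap. Both were uncalled. The number called lower was 1 without combination replicate 1 or 2 or with only the 6 libraries fitted, and 2 without IFNγ replicate 1.

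Of 48 antiviral interferon-stimulated genes, 22 were higher (45.8%) and 5 lower (10.4%), with a median of 0.15. Among all tested genes these shares were 30.3% and 30.4%. IFIT1, which binds foreign RNA caps, had 19.7, 16.2 and 13.4 CPM under IFNγ and 35.2, 35.6 and 49.5 CPM under the combination, a rise of 1.29 ± 0.167, and IFIT2 rose by 1.09 ± 0.107. IFIT5 fell from 64.5 ± 4.38 to 49.3 ± 5.36 CPM (SD, n = 3 each), and TRIM14, a signalling adaptor, and DTX3L, a ubiquitin ligase, changed by -0.27 ± 0.0493 and -0.23 ± 0.0329. Without combination replicate 3, 15 were called higher and 14 lower. The sensors of nucleic acids had 6 of 16 higher and 6 lower (37.5% each), not far from the shares of all tested genes. TMEM173, the adaptor STING, rose by 0.81 ± 0.0576, DDX58, the RNA sensor RIG-I, by 0.63 ± 0.0608, and its relative DHX58 by 0.90 ± 0.108, while the DNA sensor IFI16 changed by -0.31 ± 0.045.

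Of 20 tested chemokines, interleukins and growth cytokines, 11 were higher (55%) and 4 lower (20%), beside 30.3% and 30.4% of all tested genes. IL32, an inflammatory cytokine, held 11, 8.12 and 9.03 CPM under IFNγ and 36.6, 37.1 and 41 CPM under the combination, a rise of 2.03 ± 0.103. IL33, an alarmin, rose by 1.40 ± 0.311, IL6 by 1.15 ± 0.199 and CXCL9, which draws T cells, by 1.34 ± 0.328. CXCL8, which draws neutrophils, fell from 26.8, 33.1 and 36.5 CPM to 12.8, 14.3 and 9.64 CPM, and CXCL3, of similar function, changed by -1.37 ± 0.259. CXCL10, a T cell chemokine close to CXCL9, had 5.05, 2.99 and 2.01 CPM and 1.86, 1.23 and 3.77 CPM and was not called.

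Checkpoint ligands and other molecules that meet T cells were called at shares near the background: 6 of 15 were higher (40%) and 5 lower (33.3%), beside 30.3% and 30.4% of all tested genes. CD274, the checkpoint ligand PD-L1, had 60, 58.1 and 56.9 CPM under IFNγ and 31.7, 32.6 and 37.7 CPM under the combination, a log2 fold change of -0.78 ± 0.0696 (edgeR, Benjamini-Hochberg adjusted p = 1.1e-13). Its highest combination library lay below its lowest IFNγ library. PDCD1LG2, the second PD-1 ligand, changed by -0.41 ± 0.0745, and ENTPD1, the ectonucleotidase CD39, by -0.85 ± 0.15. The costimulatory ligand TNFSF9, known as 4-1BB ligand, rose from 12, 14 and 12 to 70.5, 77.3 and 70.5 CPM, and CD70, the ligand of CD27, from 19.8, 23.6 and 22.6 to 89.4, 94.9 and 99.1 CPM. ICAM1, the adhesion ligand of lymphocytes, was not called at -0.22 ± 0.152. Of 5 tested NKG2D ligands, which alert natural killer cells, ULBP2 rose by 0.55 ± 0.11, and MICA was called lower at -0.24 ± 0.102, a call lost under 7 of 12 alternatives.

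Of 24 caspases and death effectors 11 were higher (45.8%) and 8 lower (33.3%), beside 30.3% and 30.4% of all tested genes, so the share called lower was near the background. BIRC3, an inhibitor of apoptosis under NF-kB, rose by 1.32 ± 0.218, the death ligand TNFSF10 (TRAIL) by 1.02 ± 0.175, CASP10, an initiator caspase, by 0.95 ± 0.145, and CASP1, which processes interleukins, by 0.56 ± 0.0633. CASP2, an initiator caspase, changed by -0.70 ± 0.069 and the adaptor FADD by -0.41 ± 0.0654. In the BCL2 family 7 of 15 were higher (46.7%) and 4 lower (26.7%): the guardian BCL2A1 fell from 30.3, 31.2 and 29.8 CPM in the IFNγ libraries to 8.63, 8.31 and 11.7 CPM in the combination libraries, BCL2 changed by -0.83 ± 0.126 and MCL1 by -0.65 ± 0.0289, whereas the guardian BCL2L1 rose by 0.85 ± 0.0406. Of 15 NF-kB genes 7 were higher (46.7%), led by the adaptor TRAF1 (2.25 ± 0.266), with RELB at 0.77 ± 0.155. The subunit NFKB1 (-0.59 ± 0.0515) was the 1 called lower (6.67%).

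Of 18 collagen genes 13 were higher (72.2%) and 2 lower (11.1%), beside 30.3% and 30.4% of all tested genes, with a median of 0.48. COL7A1, the anchoring fibril collagen, had 6.63, 6.07 and 4.82 CPM under IFNγ and 18.6, 24.7 and 25.3 CPM under the combination, COL16A1 rose by 1.49 ± 0.245 and COL15A1 by 1.24 ± 0.353, while COL8A1 changed by -0.70 ± 0.207. Without IFNγ replicate 1, 1 collagen gene was called lower. Of 29 targets of TGF-beta and YAP 19 were higher (65.5%) and 5 lower (17.2%). ACTA2, the smooth muscle actin of contractile cells, rose from 7.82, 6.91 and 9.73 to 44.2, 44.1 and 46.3 CPM, and TGFB2, a TGF-beta ligand, rose by 1.03 ± 0.0765. The YAP targets CTGF and CYR61 changed by -0.42 ± 0.0452 and -0.41 ± 0.0347, and TNC, the matrix protein tenascin C, by -0.92 ± 0.0642.

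Of 16 metalloproteinases and their inhibitors 10 were higher (62.5%) and 2 lower (12.5%), beside 30.3% and 30.4% of all tested genes. TIMP3, a matrix-bound inhibitor, held 12.3, 11.4 and 14.9 CPM under IFNγ and 56.7, 58.4 and 51.2 CPM under the combination, and MMP2, a gelatinase, rose by 0.87 ± 0.0538. MMP16 and PLAUR, the urokinase receptor, changed by -0.42 ± 0.0617 and -0.36 ± 0.0435. Integrins, the receptors for matrix, were higher in 11 of 14 cases (78.6%), with ITGB4 at 1.48 ± 0.229, ITGA10 at 1.40 ± 0.0882 and ITGA2 at 0.78 ± 0.0309. ITGA6 was the 1 integrin called lower, at -0.33 ± 0.0289.

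Lysosomal genes rose almost throughout, 31 of 35 higher and 1 lower with a median of 0.42, beside 30.3% higher among all tested genes. After FUCA1, described above, the largest rises were in the sialidase NEU1, from 25 ± 1.55 to 55 ± 1.51 CPM (SD, n = 3 each), and the protease CTSF (1.11 ± 0.185). CTSL, cathepsin L, was the member that fell, with a log2 fold change of -0.20 ± 0.0441. Mitochondrially encoded transcripts were higher in 7 of 8 cases, from MT-ND3 at 0.14 ± 0.0268 to MT-CO2, a subunit of cytochrome oxidase, at 0.42 ± 0.0242. MT-ND2 was not called at 0.03 ± 0.027. The nuclear genes of the respiratory chain gave 13 of 38 higher (34.2%, near the 30.3% of all tested genes) and 2 lower (5.26%), with SDHA, of complex II, at 0.43 ± 0.038 and SDHC at 0.39 ± 0.0459. Clock genes gave 9 of 21 higher (42.9%) and 5 lower (23.8%), beside 30.3% and 30.4% of all tested genes. The repressor BHLHE41 rose by 1.10 ± 0.141 and PER1 by 0.65 ± 0.136, and ARNTL2 fell from 245 ± 7.34 to 154 ± 0.494 CPM (SD, n = 3 each) and CRY1 changed by -0.62 ± 0.119.

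Genes often used as references were not flat. Of 15 such genes 10 were called lower, with a median of -0.19, among them HPRT1 of purine salvage at -0.38 ± 0.0486 and the adaptor YWHAZ at -0.38 ± 0.0282. Of 45 cytoplasmic ribosomal protein genes 14 were lower (31.1%, near the 30.4% of all tested genes) and 5 higher (11.1%), from RPS15 at -0.20 ± 0.0355 to RPS19 at 0.22 ± 0.0383. That 14 was 7 without IFNγ replicate 1 or combination replicate 3, 8 without IFNγ replicate 2 and 9 without combination replicate 2. Cholesterol and fatty acid genes split 7 higher (24.1%) and 11 lower (37.9%) of 29, beside 30.3% and 30.4% of all tested genes. Among them HSD17B7 was at 0.47 ± 0.101 and the squalene epoxidase SQLE at -0.36 ± 0.0442. There 7 were lower in DESeq2, and 11 higher with scaling by library totals.

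The radiation effect in IFNγ-treated cells was close to that in cells without the cytokine, measured in 6 other libraries. In those, 3389 genes were called higher (27.9%) and 3427 lower (28.2%) after 20 Gy. The log2 fold changes of the 2 comparisons, which share no library, had a Pearson correlation of 0.863 and a Spearman correlation of 0.861 across 12160 genes, and a Pearson correlation of 0.917 over the 10489 genes whose mean log2 CPM was 2 or more. Genes are not independent replicates, and the points share the scaling of libraries and each gene's own level and length. Of 5722 genes called in both, 5701 had the same sign (99.6%). Another 1658 genes were called only with IFNγ and 1094 only without it. Of the 732 genes changed at least 2-fold under IFNγ, 726 had the same sign without it, and 632 were called in the same direction there.

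**Figure D4:**
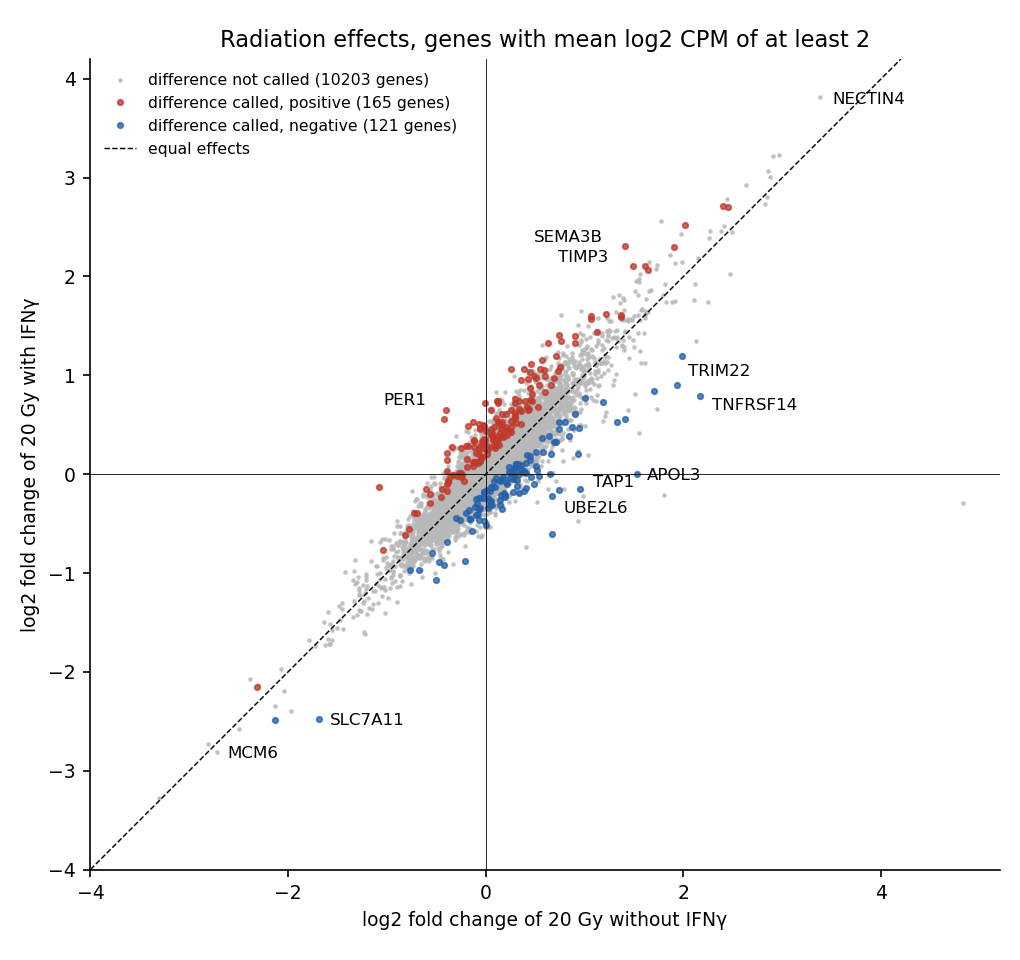
Log2 fold change of 20 Gy with IFNγ (y axis) against that without it (x axis) for the 10489 genes whose mean log2 CPM was 2 or more, with the dashed line at equal effects. Genes whose difference of effects was called lie off the line in red (165 positive) or blue (121 negative), and SLC7A11, TAP1, APOL3, TNFRSF14 and TRIM22 lie below it.

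The difference between the 2 effects was tested in 1 model as the effect with IFNγ minus that without. By edgeR at a Benjamini-Hochberg adjusted p under 0.05, 168 genes had a positive difference (1.38%) and 121 a negative one (0.995%), and 1788 genes had an unadjusted p under 0.05. The counts depended on single libraries: they were 91 and 70 without radiation replicate 2, and 102 and 77 without combination replicate 2, and the negative count was 75 without IFNγ replicate 1 and 77 without radiation replicate 1. Scaling by library totals moved the split to 215 positive and 95 negative. Of the 168 positive genes, 80 rose in both settings and more with IFNγ, and 51 were called higher with IFNγ and not called without it. A further 9 were lower without IFNγ and higher with it, 13 fell in both but less with IFNγ, and 15 were called lower only without it. Of the 121 negative genes, 30 rose in both but less with IFNγ, 34 were called higher without IFNγ and not called with it, 10 went from higher to lower, 18 fell in both and more with IFNγ, and 29 were called lower with it and not called without. Only 9 differences were as large as 2-fold.

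Among the 54 genes of the replication lists, which leave out PCNA, none had a called difference in either direction. The shares among all tested genes were 1.38% positive and 0.995% negative. Median effects of these 54 were -0.57 with IFNγ and -0.54 without, and no alternative processing called a difference among them. Among 53 p53 targets 5 had a positive (9.43%) and 3 a negative difference (5.66%), both above those shares, and the median effects were both 1.21. CDKN1A rose by 2.70 ± 0.0395 with IFNγ and 2.45 ± 0.0378 without, a difference of 0.25 ± 0.0547 (edgeR, Benjamini-Hochberg adjusted p = 0.0041). On the CPM scale its rise was 498 with and 500.2 without, so the called difference belongs to the log2 scale. GDF15 (0.32 ± 0.0611) and PCNA (0.34 ± 0.0467) also rose more with IFNγ, by 179 CPM for PCNA against 81.1 CPM.

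Interferon genes carried negative differences. Of the 129 members of the 5 lists, 18 had a called negative difference and 1 a positive one, beside 0.995% and 1.38% of all tested genes. TAP1, the other chain of the peptide transporter, read 15.6, 17.6 and 16 CPM untreated, 32.2, 32.8 and 30.7 CPM with 20 Gy, 597, 521 and 491 CPM with IFNγ and 453, 467 and 532 CPM with both. The 3 radiation libraries lay above the 3 untreated ones, while the combination and IFNγ libraries overlapped. The difference of effects was -1.10 ± 0.204 (edgeR, Benjamini-Hochberg adjusted p = 0.027). That call was lost without any single untreated or radiation library, without combination replicate 2 and with the replicate number as a block. APOL3 went from 1.13, 0.847 and 0.609 CPM untreated to 2.62, 2.91 and 2.04 CPM with 20 Gy, but read 64.5, 56.9 and 54 CPM with IFNγ and 59.1, 56.8 and 60.2 CPM with both, a difference of -1.52 ± 0.33. UBE2L6, which conjugates ISG15, had effects of -0.16 ± 0.0372 with (-0.11 without IFNγ replicate 1) and 0.74 ± 0.084 without IFNγ, and IRF9 -0.22 ± 0.0568 and 0.67 ± 0.12. B2M had effects of 0.02 ± 0.0271 and 0.38 ± 0.03, a difference of -0.36 ± 0.0404. No MHC class II gene had a called difference, although the list's median difference was -0.80. Without IFNγ, 2 of the 15 tested members were called higher after 20 Gy. Several members had low counts there, so the lack of calls does not show equal effects.

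For several of these genes the scale decides what is larger. TRIM22, an antiviral ubiquitin ligase that is also a p53 target, rose by 174 CPM with IFNγ and 64.6 CPM without, although its log2 effects were 0.90 and 1.94. C1S gained 97.4 CPM with IFNγ and 6.22 CPM without (log2 effects 0.84 and 1.70), and CASP1 17.8 and 5.64 CPM. TNFRSF14, the herpesvirus entry mediator, gained 13.6 CPM with and 11 CPM without, at a log2 difference of -1.37 ± 0.189. The mean of B2M gained less with IFNγ on both scales, 21.9 CPM against 125 CPM without it. Differences on the CPM scale are differences of means and were not tested. Radiation replicate 2 held more reads of several interferon genes than its group, with CD74 at 1.81, 9.84 and 2.04 CPM and GBP5 at 1.01, 5.92 and 0.292 CPM in radiation replicates 1, 2 and 3. The counts of differences without that library are given above.

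SLC7A11 fell by a larger factor with IFNγ present. Its effects were -2.48 ± 0.0921 with and -1.68 ± 0.0695 without the cytokine, a difference of -0.79 ± 0.115 (edgeR, Benjamini-Hochberg adjusted p = 2.3e-05) that was called under every alternative. In CPM the fall was smaller with IFNγ, at -64.2 against -74.5 CPM, from a lower starting level. Its partner SLC3A2 had a difference of -0.09 ± 0.0667 and ATF4 one of -0.05 ± 0.0476, neither called. ASNS had -0.35 ± 0.0901, a call lost in DESeq2 and without radiation replicate 1, radiation replicate 3 or combination replicate 3. TFRC also fell by more with IFNγ (-0.25 ± 0.0391). On the positive side, TIMP3 rose by 2.11 ± 0.0868 with and 1.49 ± 0.0762 without IFNγ, FN1, fibronectin, by 0.75 ± 0.0339 and 0.45 ± 0.0336, CD70 by 2.10 ± 0.0673 and 1.61 ± 0.0635, and TNFSF9 by 2.52 ± 0.0817 and 2.02 ± 0.0764. PER1 had opposite signs, at 0.65 ± 0.136 with and -0.40 ± 0.131 without, a difference of 1.05 ± 0.189.

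**Figure D5:**
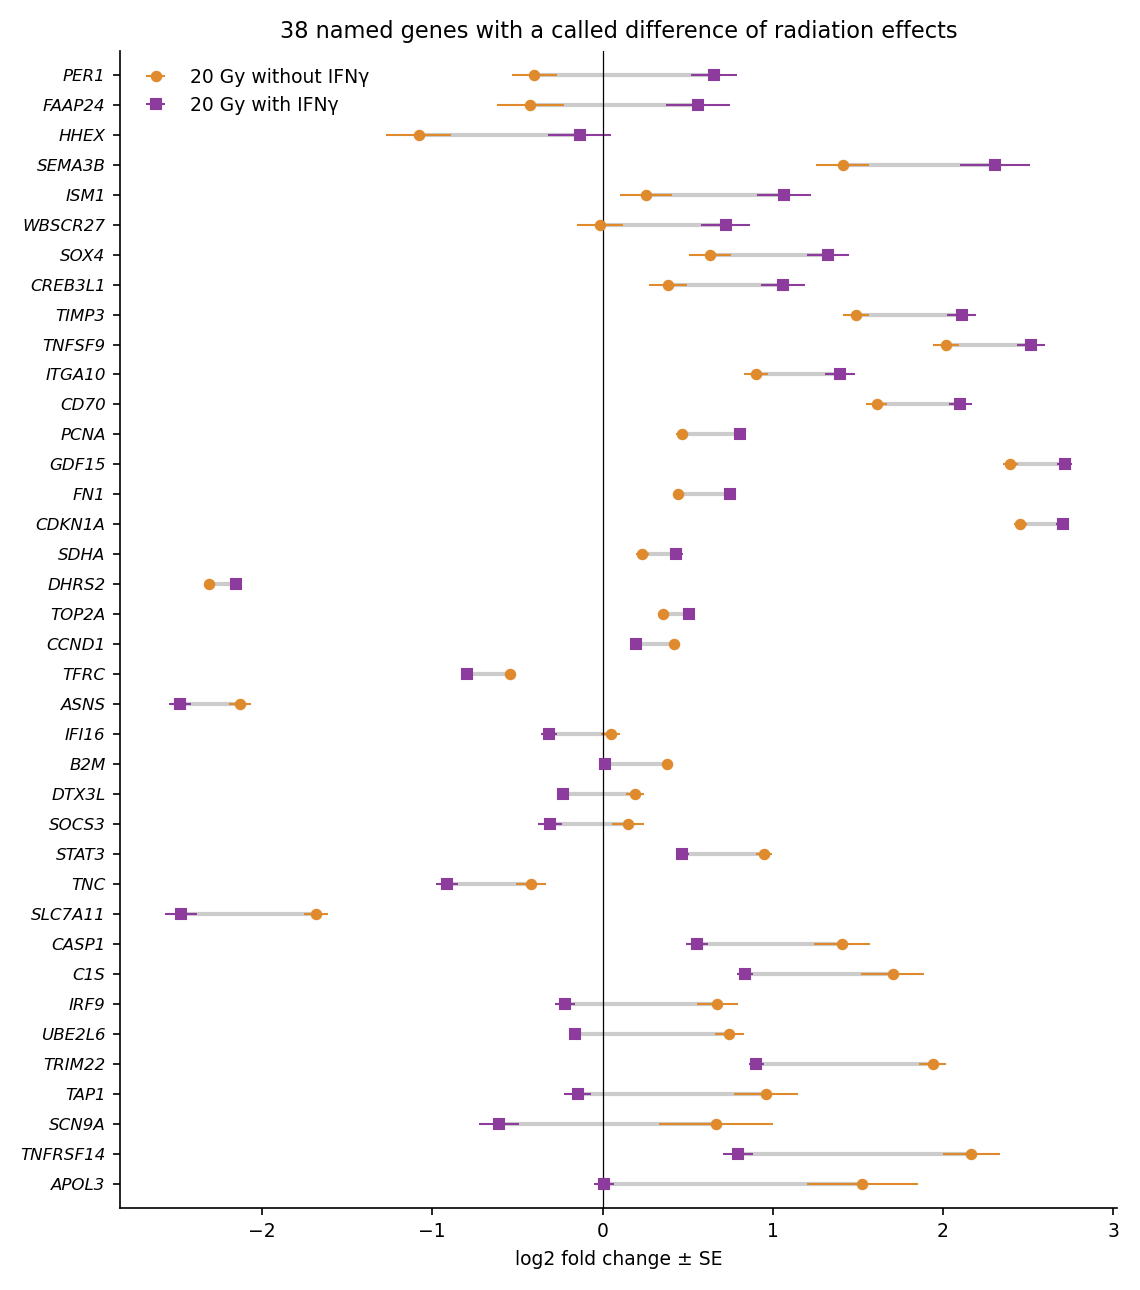
Radiation effects with and without IFNγ (log2 fold change, points with SE bars) for 38 named genes whose difference of effects was called, ordered by that difference. The interferon genes TAP1, UBE2L6, IRF9 and APOL3 sit at 0.01 or below with IFNγ and above 0 without it, and SLC7A11 lies further below 0 with IFNγ.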

How the data were processed

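RNA of HT1080 cells was sequenced in 12 libraries, 3 per group, as ribosomal-RNA-depleted paired-end libraries, per the labels' protocols. The study's design text speaks instead of mRNA libraries, so it is uncertain whether total RNA or only mRNA was sampled. The authors deposited raw counts of reads per gene. The submitters' processing notes name FastQC 0.11.3, TopHat2 2.0.13, Cufflinks, Cuffdiff 2.2.1 and the hg19 and GRCh37 builds. Which program counted the reads, with which strand option and gene models, is not given in the sources used here, so overlapping, antisense and near-identical genes are uncertain. Genes were filtered with filterByExpr (genes left out held 0.0678% of counts), scaled by TMM and fitted with edgeR 4.0.16 (R 4.3.3; quasi-likelihood, robust) with 1 mean per group over all 12 libraries, and p-values were adjusted by Benjamini-Hochberg over all tested genes. Genes are named by a rule: the 12 called genes with the largest change each way (mean log2 CPM 2 or more, groups not overlapping), the 8 largest called differences of effects each way, the 3 largest called changes each way in each list, all members of lists of up to 8 genes, and a set of anchor genes. A few genes that the rule names are not reported here. Members and lists were chosen with earlier results of these data known. Promoter windows are RefSeq's, on GRCh38.p14, and 9598 tested genes had one, matched by Ensembl identifier or, failing that, by symbol. DESeq2 1.42.0, other scalings, filters, the replicate block and libraries left out in turn were alternatives. Of the table's entries, 18 are pseudoautosomal copies and 27 have symbols turned into dates, which no text names. Library totals run from 9675126 to 11010656 counts. The floor of 3 counts covers counting error only.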

Additional observations from a re-analysis of the deposited data

Results flagged for a closer look

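Genes whose radiation effect with IFNγ differed from that without it, by the interaction term of edgeR's model at a Benjamini-Hochberg adjusted p under 0.05, are given here with the difference on the log2 scale (effect with minus effect without). Of 38 such named genes, 21 were called under every alternative that gave them a result, and 27 without radiation replicate 2. PER1, among the 21, had a result under 16 alternatives, while APOL3, for example, had one under 17. The members were named by size or as list members, so their number says nothing about how common such differences are.

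Negative differences among interferon and immune genes were -1.52 for APOL3, -1.37 for TNFRSF14, -1.10 for TAP1, -1.03 for TRIM22, -0.91 for UBE2L6 and -0.89 for IRF9. The complement protease C1S had -0.87, CASP1 -0.85, STAT3 -0.48, the feedback inhibitor SOCS3 -0.46, DTX3L -0.42, B2M -0.36 and IFI16 -0.36. Outside that group the values were -1.27 for the sodium channel SCN9A, -0.79 for SLC7A11, -0.49 for TNC, -0.35 for ASNS, -0.25 for TFRC and -0.22 for CCND1.

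Positive differences were 1.05 for PER1, 0.98 for the Fanconi gene FAAP24, 0.94 for the homeobox factor HHEX, 0.89 for the semaphorin SEMA3B, 0.81 for the secreted ISM1, 0.74 for WBSCR27, 0.69 for the transcription factor SOX4 and 0.68 for CREB3L1. TIMP3 had 0.62, TNFSF9 0.50, ITGA10 0.49, CD70 0.49, PCNA 0.34, GDF15 0.32, FN1 0.31, CDKN1A 0.25, SDHA 0.20, DHRS2 0.16 and TOP2A 0.16.

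Radiation replicate 2 held more reads of IFNγ-responsive genes than its group, with HLA-DRA at 0.806, 3.62 and 0.486 CPM and CD74 at 1.81, 9.84 and 2.04 CPM in replicates 1, 2 and 3. Without it the calls of TAP1, SCN9A, CREB3L1, DHRS2, FAAP24, HHEX, SDHA, SEMA3B, SOX4, TOP2A and WBSCR27 were lost. The calls of IFI16 (untreated replicate 1), ITGA10 (IFNγ replicate 1), ASNS, ISM1, SOCS3 and TNC were lost when other single libraries were left out, for ASNS radiation replicates 1 and 3 and combination replicate 3, for TNC untreated replicates 1 and 3, IFNγ replicate 3 and combination replicate 2, and for ISM1 and SOCS3 more than 5 libraries each. The library enters the effect without IFNγ and so every difference above, and its part was not tested beyond leaving it out.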

How the results depend on the processing

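Under the alternatives run, no called gene among those named changed sign. With library totals the medians of 4 lists with IFNγ went from below to above 0: mitosis from -0.01 to 0.03, iron handling from -0.01 to 0.03, ferroptosis lipid enzymes from -0.02 to 0.01 and nucleic acid sensing from -0.01 to 0.03. The median differences of the E2F and type I and III interferon lists did so too, both to 0.01. The 3685 higher and 3695 lower genes were 589 and 143 when a change of at least 2-fold was also asked for, 3052 and 3113 at an adjusted p under 0.01, 3758 and 3610 with RLE scaling, 4059 and 3275 with library totals (55.3% higher), 3622 and 3795 without a filter, and 3690 and 3655 with the 6 libraries alone. Leaving out each library in turn gave 3393 to 3584 higher and 3297 to 3515 lower genes with IFNγ, 3137 to 3250 and 3191 to 3342 without it, and 91 to 194 positive and 70 to 138 negative differences of effects, lowest without radiation replicate 2 and highest without untreated replicate 2. DESeq2 called 84 positive and 75 negative differences. Replicate numbers did not pair the libraries: correlations of same-numbered deviations lay between -0.0835 and 0.00525 for IFNγ and combination, where 1 of 6 libraries correlated best with its own number, and between -0.0835 and 0.104 over all pairs of the 4 groups. With the number as a block the counts were 3667 and 3680, and 159 and 117 for the differences. Over the named genes and alternatives, 3220 values kept their call, 102 lost it and 23 gained it for the effect with IFNγ. For the effect without it these numbers were 3244, 71 and 19, and for the difference 4540, 93 and 20. The cause was not tested. Depth limits genes near the floor of 3 counts, such as IFNB1.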
